A study of Homo sapiens with 2 samples.

Results

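PLIN2, PLIN3 and 7 further genes of the lipid droplet were followed across the cell clusters of a human stem cell differentiation. The members were PLIN2, PLIN3, PLIN4, PLIN5, PNPLA2, DGAT1, DGAT2, HILPDA and CIDEB, taken by symbol, and all 9 were found among the 33694 genes of the count tables. Lipid droplets are organelles that store triacylglycerol and cholesteryl esters in a core covered by a single layer of phospholipid and coat proteins. In beta cells they take up fatty acid that is not oxidised or secreted, and their lipases release it again as a source of signals that bear on insulin secretion. Perilipins coat the droplet, PNPLA2 (also called ATGL) starts the release of fatty acid, DGAT1 and DGAT2 close triacylglycerol synthesis, HILPDA inhibits PNPLA2, and CIDEB moves lipid between droplets and into nascent lipoproteins.

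The cells came from Mel1-INS-GFP, a human embryonic stem cell line in which the insulin promoter drives GFP. Its derivative iSOX9KO carries a doxycycline-inducible Cas9 at the AAVS1 locus with guides against SOX9, so both groups shared the reporter, the Cas9 and the guides. The group no DOX was differentiated without doxycycline and the group DOX received 2 ug/ml from day 12 on. In both, GFP-high cells were sorted and reaggregated into enhanced beta clusters, and live cells were sorted again before 10x capture. Each group was 1 library from 1 clonal line, so no difference between the groups could be tested, and every interval below covers counting error only.

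Under the label no DOX there were 30288 barcodes at a median of 15991 UMIs (unique molecular identifiers, 1 per captured RNA molecule), and the library labelled DOX held 31817 with a median of 14431. After a minimum of 1000 UMIs and removal of predicted doublets, 21808 and 23118 cells remained. The libraries shared 369 barcodes, 141 of them among the cells kept. SOX9, the targeted gene, gave 946 UMIs, or 3.0 counts per 1000000 UMIs (CPM; 2.81 to 3.19), under the label no DOX. Under the label DOX it gave 1147 UMIs, or 3.78 CPM (3.56 to 4.0). Over all cells kept, the RNA of the targeted gene was therefore not lower in the library labelled DOX. This total includes the SOX9-expressing duct-like cells described below, 152 without and 177 with DOX, and is no measure of SOX9 in the endocrine clusters. Small insertions and deletions made by Cas9 can remove a protein without lowering its RNA, so this count does not measure editing, and each library is called by its label below.

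Clusters were built without the members and without the 203 genes of the lipid lists, so the levels of these genes had no part in drawing them. A cluster was given a class name only from 12 or 13 marker genes per class. Names were reached for Beta-1-like, Beta-2-like, alpha-like (2 clusters), delta-like, beta cell progenitor-like (2 clusters), proliferating progenitor-like and duct-like cells. A cluster led by GPC3, one of 2373 cells made up largely of mitochondrial RNA and one led by metallothionein genes stayed unnamed. ALB and APOA2, known from hepatocytes, were among the 10 leading genes of the metallothionein-led cluster. Of the markers of other lipid-storing cells, ADIPOQ, the adipocyte hormone, was at 0 UMIs in Beta-1-like, Beta-2-like and metallothionein-led cells, while AQP7 reached 37.1 CPM in the metallothionein-led cluster and the macrophage marker AIF1 38.3 CPM in Beta-1-like cells.

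PLIN2 coats the surface of droplets in most cell types and its RNA follows their lipid load, while PLIN3 is an exchangeable coat protein that binds small, early droplets. The bases before their start sites are shown because the levels of these 2 members resembled each other across clusters. The sequences are RefSeq (GRCh38.p14) and end at the annotated start site. Capitals mark the hypoxia core ACGTG or GCGTG, the E-box CACGTG and the TATA box TATAAA, on either strand. The E-box contains ACGTG on both strands. The upstream window of PLIN2 lies at chr9:19127493-19127742 and that of PLIN3 at chr19:4867668-4867917, both on the minus strand.
PLIN2: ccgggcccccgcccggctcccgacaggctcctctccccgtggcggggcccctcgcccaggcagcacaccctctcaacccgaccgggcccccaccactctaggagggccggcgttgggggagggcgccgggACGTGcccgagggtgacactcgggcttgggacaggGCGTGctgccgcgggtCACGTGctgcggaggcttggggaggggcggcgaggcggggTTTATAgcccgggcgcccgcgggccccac
PLIN3: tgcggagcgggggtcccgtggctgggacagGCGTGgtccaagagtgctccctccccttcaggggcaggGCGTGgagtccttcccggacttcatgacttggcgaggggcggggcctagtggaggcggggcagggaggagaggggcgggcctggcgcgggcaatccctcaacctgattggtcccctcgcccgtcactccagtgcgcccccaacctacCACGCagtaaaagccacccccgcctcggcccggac

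ACGTG matched 3 times in the PLIN2 window, where 18.5% of 35116 RefSeq windows of 250 bases held it, and no match lay in the PLIN3 window. GCGTG matched once upstream of PLIN2 and 3 times upstream of PLIN3, against 32.2% of all windows. The E-box and the TATA box letters were found upstream of PLIN2 alone of the pair, against 6.34% and 10.7% of all windows. The TATA match reads TTTATA in the window, so TATAAA lies on the strand opposite to PLIN2. The nuclear receptor element AGGTCA (12.1% of windows) and its direct repeat with 1 base between the copies (0.0171%), which PPAR and HNF4 factors can bind, matched in neither window. Both windows were rich in G and C, at 78.0% for PLIN2 and 70.8% for PLIN3, where the median window had 58.0%.

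In GENCODE 44, PLIN2 (ENSG00000147872) spans chr9:19108375-19149290 and PLIN3 (ENSG00000105355) chr19:4838341-4867694, both on the minus strand. In that annotation PLIN2 overlaps no other gene, has a start further upstream than the RefSeq window, and PLIN3 overlaps an unnamed gene (ENSG00000267484) on the opposite strand. CIDEB (ENSG00000136305, chr14:24305187-24311430) lies across NOP9 and LTB4R2 on the opposite strand, and DGAT1 (ENSG00000185000, chr8:144314584-144326910) across HSF1. The strand setting of the counting was not given in the sources used here, so reads of these pairs could have been exchanged.

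PLIN2 was highest in the metallothionein-led cluster and lowest in delta-like cells, a span of 10.1-fold. It stood at 312 CPM (both libraries together; 987 cells) in the metallothionein-led cluster, with 312 CPM under the label no DOX and 313 CPM under DOX. Duct-like cells followed at 161 CPM, with 147 CPM without and 172 CPM with DOX. These 329 cells were the smallest cluster described and had SOX9, 1 of the markers by which they were named, at 270 CPM. Beta-1-like cells (10798) held PLIN2 at 141 CPM in each library alone. Alpha-like cells held it at 123 CPM, with 111 CPM under no DOX and 140 CPM under DOX. The smaller alpha-like cluster, a shallow one with medians of 2928 and 2597 UMIs, had 101 CPM and Beta-2-like cells (4754) had 79.0 CPM, from 74 CPM without to 84.2 CPM with DOX. Below these came the mitochondrial-RNA cluster (74.1 CPM), proliferating progenitor-like cells (70.1 CPM), the GPC3-led cluster (53.5 CPM), both beta cell progenitor-like clusters (44.5 and 35.6 CPM) and delta-like cells at 31.0 CPM. The value of the mitochondrial-RNA cluster came mostly from the deepest of 3 depth bins, at 110 CPM under no DOX and 106 CPM under DOX, with 18.2 to 36.4 CPM in the other bins. The median mitochondrial share of that cluster was 70.2%. CPM counts mitochondrial UMIs in the total, which lowers the cluster's values and its place for the members. Of the 11 pairs of neighbours in this order, 3 had overlapping Poisson intervals with both libraries together. These were Beta-2-like with mitochondrial-RNA, mitochondrial-RNA with proliferating progenitor-like, and the smaller progenitor-like cluster with delta-like. In single libraries, duct-like and Beta-1-like cells lay close under no DOX (147 and 141 CPM), as did Beta-1-like and alpha-like cells under DOX (141 and 140 CPM). Beta-1-like cells supplied 38.3% of all PLIN2 UMIs with 28.1% of all UMIs, and the metallothionein-led cluster 12.0% with 3.95%.

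PLIN3 also peaked in the metallothionein-led cluster, at 129 CPM (130 CPM without and 127 CPM with DOX), and spanned 5.60-fold over the clusters. The smaller alpha-like cluster came second at 102 CPM. Beta-1-like cells held 88.4 CPM, with 99.7 CPM under no DOX and 80.3 CPM under DOX. Alpha-like cells had 67.6 CPM and duct-like cells 46.1 CPM. Both beta cell progenitor-like clusters, proliferating progenitor-like, Beta-2-like, GPC3-led, delta-like and mitochondrial-RNA cells lay between 23.0 and 38.4 CPM. Within that lower range 4 of the neighbouring pairs overlapped in their intervals, and Beta-2-like cells (35.9 CPM) overlapped proliferating progenitor-like cells (37.4 CPM). Duct-like cells stood next to the top for PLIN2 but below both alpha-like clusters and Beta-1-like cells for PLIN3.

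**Figure D1:**
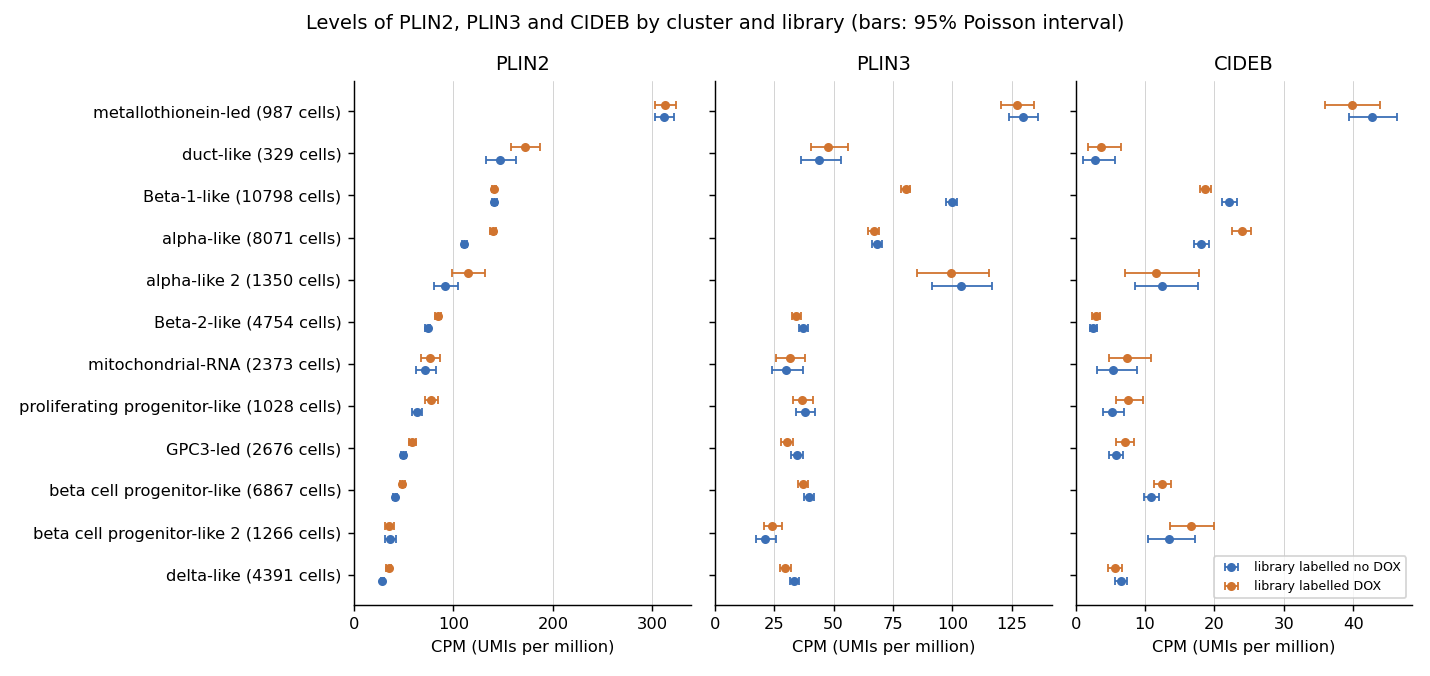
Levels of PLIN2, PLIN3 and CIDEB in CPM (horizontal axes, from 0) for each of 12 clusters (vertical axis, ordered by PLIN2), with 1 point per library and 95% Poisson intervals for counting error. The metallothionein-led cluster is the highest for all 3 genes, while Beta-2-like cells sit at 79.0 CPM for PLIN2, 35.9 CPM for PLIN3 and 2.72 CPM for CIDEB.

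CIDEB, a CIDE family protein known for lipid loading of very-low-density lipoproteins in liver, separated the clusters more widely than either perilipin. It was at 41.5 CPM in the metallothionein-led cluster, 20.6 CPM in alpha-like cells and 20.1 CPM in Beta-1-like cells. Beta-2-like cells had 2.72 CPM (236 UMIs), with 2.55 CPM without and 2.90 CPM with DOX, and duct-like cells 3.24 CPM (18 UMIs). Pooled, alpha-like and Beta-1-like cells had overlapping intervals, but within each library they did not, and in opposite orders: 18.1 against 22.1 CPM under no DOX and 23.9 against 18.7 CPM under DOX. Duct-like and Beta-2-like cells overlapped in both libraries. NOP9, which lies opposite CIDEB, ranged from 2.09 to 12.9 CPM and was at 3.93 CPM in Beta-1-like and 4.44 CPM in Beta-2-like cells. The part of shared reads in the CIDEB levels was not tested. LTB4R2, the other gene opposite CIDEB, was at 0.403 CPM or less in every cluster.

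The lipase PNPLA2 ran in another order. It was highest in the beta cell progenitor-like cluster at 40.2 CPM (38.3 CPM without and 42.4 CPM with DOX) and next in the smaller progenitor-like cluster at 29.2 CPM. Alpha-like cells had 18.6 CPM. Beta-1-like (13.0 CPM), metallothionein-led (12.8 CPM) and Beta-2-like cells (12.2 CPM) could not be told apart by their intervals, and duct-like cells had 7.38 CPM. HILPDA, a hypoxia-inducible inhibitor of PNPLA2, was highest in duct-like cells at 52.6 CPM and in proliferating progenitor-like cells at 37.3 CPM. Beta-1-like and Beta-2-like cells both had HILPDA at 30.6 CPM, and alpha-like cells had 12.5 CPM.

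DGAT1, the acyltransferase of the endoplasmic reticulum that esterifies diacylglycerol, was at 47.5 CPM in duct-like cells, 46.7 CPM in the larger progenitor-like cluster and between 13.9 and 41.4 CPM elsewhere. HSF1, its antisense neighbour, was also high in the progenitor-like cluster (41.3 CPM against 21.8 CPM in Beta-1-like cells), and the part of shared reads was not tested. DGAT2, which works at the droplet surface, stayed between 0.79 and 4.35 CPM in every cluster. PLIN5, the perilipin that ties droplets to mitochondria, had 265 UMIs in all cells kept and reached 2.73 CPM in the smaller progenitor-like cluster. PLIN4, known from adipocytes and muscle, had 18 UMIs in all, 3 of them under no DOX and 15 under DOX. PLIN1, the adipocyte perilipin and no member here, was at 0.368 CPM or less in every cluster. The comparisons below require 5 CPM in at least 1 of the groups compared, which DGAT2, PLIN4 and PLIN5 did not reach, so 6 of the 9 members entered them.

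**Figure D2:**
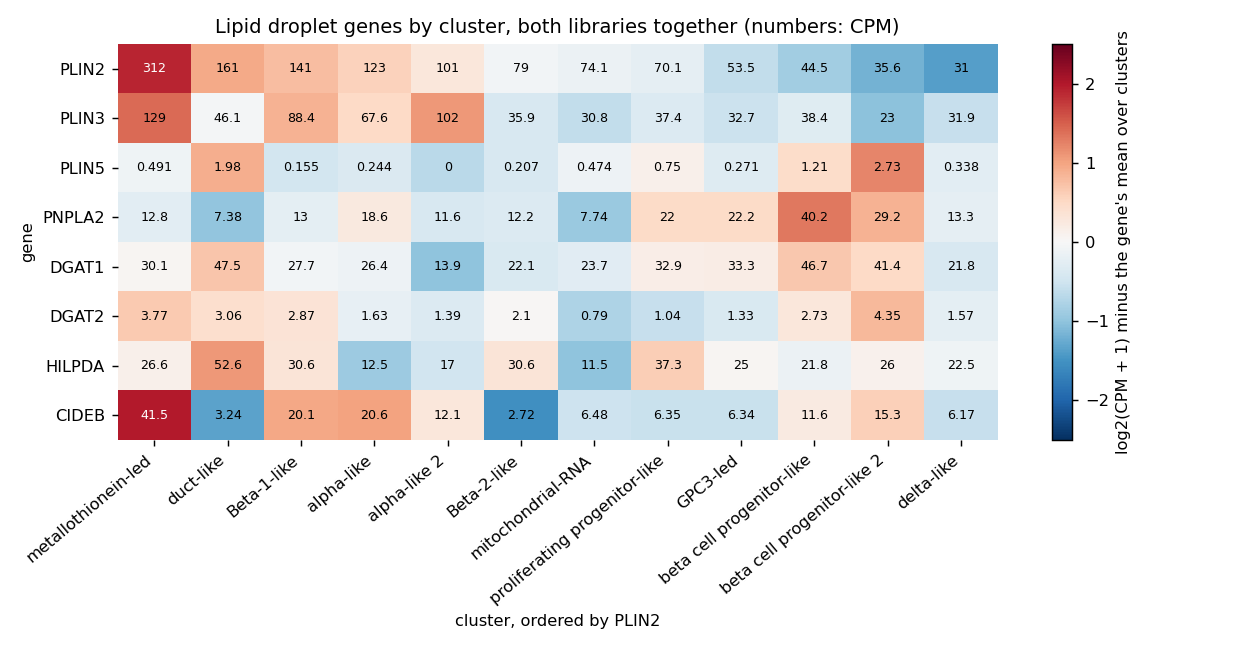
The 8 members with over 18 UMIs (rows) in 12 clusters (columns, ordered by PLIN2) with both libraries together; numbers are CPM and colours are log2(CPM + 1) minus the gene's own mean over clusters. PLIN2, PLIN3 and CIDEB share their highest column, the metallothionein-led cluster, whereas PNPLA2 is highest in beta cell progenitor-like cells and HILPDA in duct-like cells.

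The pattern over clusters was compared between genes as the Pearson correlation of log2(CPM + 1) over 11 clusters, computed in each library, with the lower of the 2 values used. The clusters share their library, their sequencing run and part of their background RNA, and the values are descriptions. Among 11131 genes, those most like PLIN2 were APOA2 (0.909) and AFP (0.863), secreted plasma proteins of liver and fetal gut endoderm, the scaffold AKAP12 (0.858), the intracellular fatty acid carrier FABP1 (0.854) and the clotting factor gene F2 (0.853). AKAP12 was among the markers used to name Beta-1-like cells. APOA2 and FABP1 were highest in the metallothionein-led cluster, at 717 and 726 CPM. The outline of that cluster depended on the clustering, and the correlations were computed on 1 clustering only. PLIN3 ranked 13th for PLIN2 at 0.815. Those most like PLIN3 were APOM (0.896), an apolipoprotein of high-density lipoprotein, PDLIM2 (0.865), NPC2 (0.855), which carries cholesterol out of lysosomes, EGFL7 (0.847) and TNFSF12 (0.840). CIDEB reached 0.600 with PLIN3 (rank 133) and 0.378 with PLIN2 (rank 535). PNPLA2 was negative with PLIN2, at -0.57 and -0.61 in the 2 libraries, but ranked 8616th of the 11131 genes, so many genes were more negative. With PLIN3, DGAT1 (rank 5438) stood at -0.45 and PNPLA2 (rank 5711) at -0.48, so values of that size lay near the middle of all genes.

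The first comparison set Beta-1-like against Beta-2-like cells, the 2 insulin-rich populations of the study, for which PLIN2 and PLIN3 were among the genes the authors listed on these same libraries. CIDEB and both perilipins were higher in Beta-1-like cells, in each library alone, while the intervals of PNPLA2 and HILPDA held 0. PLIN2 was at 141 CPM against 79.0 CPM, a log2 ratio of 0.83 (0.79 to 0.87), with 0.93 under no DOX and 0.74 under DOX. PLIN3 was at 88.4 CPM against 35.9 CPM, a log2 ratio of 1.30 (1.24 to 1.36), with 1.42 and 1.22 in the 2 libraries. CIDEB was at 20.1 CPM against 2.72 CPM, a log2 ratio of 2.89 (2.70 to 3.08), with 3.12 and 2.69. The median gene of the 10124 compared stood at a log2 ratio of -0.17. Relative to that median, PLIN2 was at 1.00 and PLIN3 at 1.47.

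A gene was called when it was at least 2-fold apart in the same direction in both libraries. Of the 6 members compared, PLIN3 and CIDEB were called higher in Beta-1-like cells, where 1.77% of all genes were, and no member was called lower, where 3.68% were. CIDEB met the 5 CPM minimum through Beta-1-like cells only. PLIN2 missed the 2-fold line but exceeded 97.3% of all genes. Over 14 alternatives its log2 ratio ranged from 0.70 to 1.21 and was at least 1 in 7 of them. DGAT1 had a log2 ratio of 0.33 (0.25 to 0.40), from 27.7 CPM and 22.1 CPM. The interval held 0 for PNPLA2 (0.09, -0.02 to 0.20) and for HILPDA (0.00, -0.07 to 0.07). Over 14 alternatives PNPLA2 ranged from -0.17 to 0.38 and HILPDA from -0.12 to 0.17, while CIDEB ranged from 2.40 to 3.81.

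**Figure D3:**
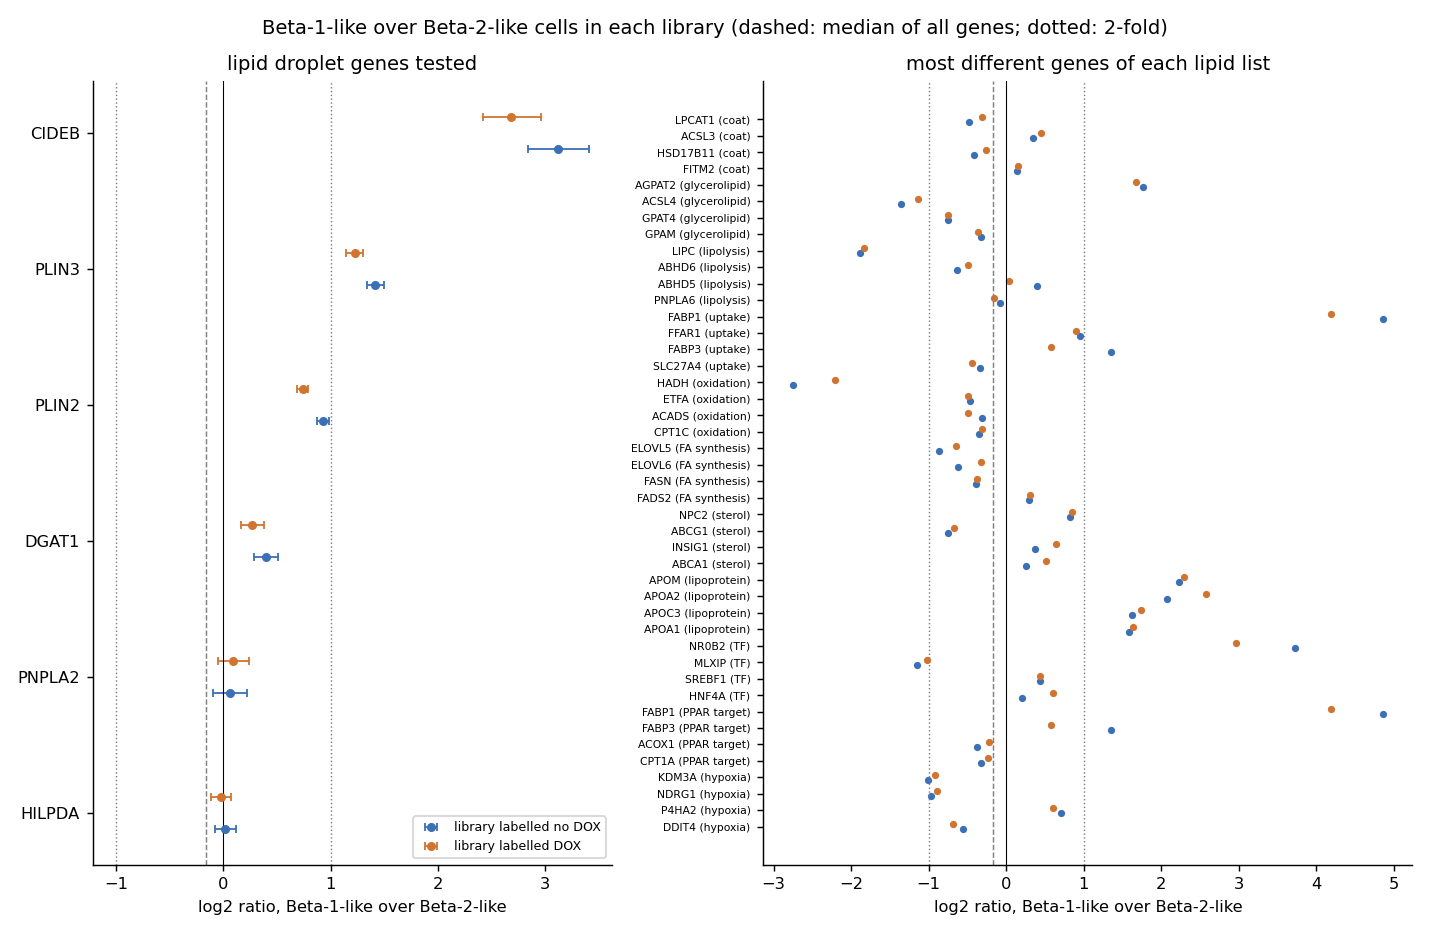
Log2 ratio between Beta-1-like and Beta-2-like cells, the former on top (horizontal axes), in each library for the 6 members compared, with 95% counting intervals (left), and for up to 4 genes of each lipid list with the largest difference (right). CIDEB, PLIN3 and PLIN2 lie at 2.89, 1.30 and 0.83 with both libraries together, and HILPDA lies at 0.00.

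Depth moved with these levels. Cells of each cluster and library were put into 3 depth bins of equal size. Among Beta-1-like cells under no DOX, PLIN2 was at 85.0 CPM in the shallowest bin, 117 CPM in the middle bin and 183 CPM in the deepest bin. Under DOX the bins held 94.9, 120 and 175 CPM. Beta-2-like cells went from 59.8 to 82.8 CPM and from 69.4 to 89.2 CPM over these bins, so Beta-1-like cells were the higher in each bin of both libraries. Beta cell progenitor-like cells had overlapping intervals, with 44.2 CPM in the shallowest and 39.2 CPM in the deepest bin without DOX. Cells were also thinned to 5000 UMIs, with shallower cells left out, which removed most cells of the shallow clusters. Beta-1-like over Beta-2-like cells then gave a log2 ratio of 0.70 in PLIN2 and 1.23 in PLIN3. At that depth 39.6% of Beta-1-like cells (38.7 to 40.5%, exact binomial) had a PLIN2 UMI, against 28.5% (27.2 to 29.8%) of Beta-2-like cells, 37.7% of alpha-like cells and 68.1% of metallothionein-led cells. Delta-like cells had the lowest share of the 12 clusters, 13.0%, and the part of free RNA in these shares was not tested. For PLIN3 the shares were 30.8% of Beta-1-like and 15.2% of Beta-2-like cells, with 13.4% of delta-like cells.

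PLIN2 was also spread more unevenly among cells than a single rate per cluster would give. The ratio of variance to mean of its UMIs in thinned cells, which is 1 for Poisson counts, was 2.13 in metallothionein-led, 1.76 in Beta-1-like, 1.7 in alpha-like and 1.47 in Beta-2-like cells, but 1.14 in delta-like and 1.08 in beta cell progenitor-like cells. For PLIN3 it was 1.21 in Beta-1-like and 1.11 in Beta-2-like cells. A single Beta-1-like cell held up to 92 PLIN2 UMIs before thinning. The Poisson and binomial intervals on summed UMIs do not cover this spread between cells. Beta-1-like cells with a PLIN2 UMI after thinning had CIDEB at 29.7 CPM against 15.1 CPM in those without under no DOX, at a log2 ratio of 0.98 (0.69 to 1.27). Under DOX the values were 23.2 and 11.6 CPM, at a log2 ratio of 1.00 with a lower bound of 0.75. Alpha-like cells gave 0.75 (0.43 to 1.08) and 0.92 (0.63 to 1.22) for CIDEB in the 2 libraries. For CIDEB the interval held 0 in both libraries in Beta-2-like, beta cell progenitor-like, GPC3-led and metallothionein-led cells, the last at 0.62 and -0.14. In delta-like cells it stood at 1.11 (0.26 to 1.88) under no DOX and held 0 under DOX. PLIN3 differed less by this split of Beta-1-like cells, at 0.38 and 0.34, as did DGAT1, at 0.43 and 0.23, and the interval of PNPLA2 held 0 in both libraries. The part of metallothionein level, and of depth before thinning, in these splits was not tested.

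The other lipid genes were described from 11 lists of 203 genes. The counts that follow are to be read beside the 1.77% of all genes called higher and the 3.68% called lower. Called genes under 5 CPM in Beta-2-like cells, G0S2, NR0B2 and ANGPTL4 among them, met the minimum through Beta-1-like cells only. In lipoprotein assembly, 4 of the 11 genes compared were at least 2-fold higher in Beta-1-like cells in both libraries and none lower, with a median log2 ratio of 0.60 against -0.17 over all genes. These were APOM (40.4 against 8.57 CPM), APOA2 (46.0 against 10.7 CPM), APOC3 (207 against 64.4 CPM) and APOA1 (144 against 48.2 CPM), all apolipoproteins. Of 12 genes compared for fatty acid uptake and binding, 1 was called higher: FABP1 stood at 176 against 7.72 CPM, a log2 ratio of 4.51 (4.40 to 4.62). FFAR1, the fatty acid receptor that augments insulin release, was at 45.5 against 23.8 CPM, a log2 ratio of 0.94. In glycerolipid synthesis 1 of 12 was higher and 1 lower: AGPAT2, which makes phosphatidic acid, at 79.2 against 24.0 CPM, and the arachidonate-preferring ligase ACSL4 at 9.83 against 23.6 CPM. In lipolysis 2 of 9 were higher, G0S2, another inhibitor of PNPLA2 (9.77 against 3.12 CPM), and the lipase LIPG. The hepatic lipase gene LIPC was lower, at 23.7 against 88.7 CPM, a log2 ratio of -1.90.

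Fatty acid oxidation had 1 of 21 genes called lower, a share near the 3.68% of all genes. This was HADH, a mitochondrial dehydrogenase whose loss causes excess insulin secretion, at 42.7 against 222 CPM, a log2 ratio of -2.38 (-2.42 to -2.34). Among 12 lipid-sensing transcription factors compared, NR0B2, a corepressor also called SHP, was higher at 22.4 against 2.25 CPM and MLXIP lower at 8.24 against 17.4 CPM. Of 13 PPAR target genes compared, ANGPTL4 (7.35 against 0.945 CPM) and FABP1 were called higher, with a list median of 0.03. None was called in the lists of droplet coat, assembly and fusion (0 of 11), fatty acid synthesis (0 of 12), sterol genes (0 of 16) and the hypoxia response (0 of 18). For fatty acid synthesis and the hypoxia response the list medians were -0.18 and -0.22. Markers of other cell types moved with some of these genes. The 10 hepatocyte markers summed to 386 CPM in Beta-1-like and 127 CPM in Beta-2-like cells, with APOC3 and APOA1, also in the lipoprotein list, as their highest members. ALB was at 1.7 and 0.138 CPM and CYP3A4 at 0 UMIs in both. The 10 adipocyte markers summed to 22.7 and 16.5 CPM and the 10 macrophage markers to 53.5 and 52.6 CPM. The 10 enterocyte markers summed to 330 and 166 CPM, with FABP1 at 176 and 7.72 CPM, VIL1 at 133 and 142 CPM and APOB at 18.7 and 12.3 CPM, and SI was at 0 UMIs in both. The part of other cell types in these differences was not tested.

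The metallothionein-led cluster was compared with Beta-1-like cells because the perilipins peaked there. It held 987 cells, 519 without and 468 with DOX, and was led by MT1B, MT1M, MT1H, MT1G, MT1A and MT2A, zinc-binding proteins induced by metals and glucocorticoids. INS was at 172687 CPM there, 213070 CPM in Beta-1-like cells and 163715 CPM in Beta-2-like cells. PLIN2 was higher than in Beta-1-like cells by a log2 ratio of 1.15 (1.11 to 1.19), 1.15 in each library, past the 2-fold line in both, as 1.27% of the 9796 genes compared were upward and 1.34% downward. The cluster was chosen for its perilipin levels, so this value describes that choice. PLIN3 stood at a log2 ratio of 0.54 (0.38 without and 0.66 with DOX) and CIDEB at 1.04 (0.95 and 1.09). HILPDA was at -0.20 and DGAT1 at 0.12, and the interval of PNPLA2 held 0. The median gene of this comparison stood at -0.12.

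Apolipoproteins led the lipid lists in this comparison as well. Of 11 lipoprotein genes compared, 6 were called higher: APOA2 at 717 against 46.0 CPM, APOA1 at 774 against 144 CPM, APOM at 142 against 40.4 CPM, with APOC1, APOC3 and APOE. FABP1 was at 726 CPM against 176 CPM, while FFAR1 was lower, at 10.9 against 45.5 CPM. The list of fatty acid oxidation had a median log2 ratio of 0.25, where the median gene stood at -0.12. LIPC was at 89.7 CPM, about its level in Beta-2-like cells. The 10 hepatocyte markers summed to 1375 CPM, most of it APOA1 (774 CPM) and APOC3 (450 CPM), which are also in the lipoprotein list. AFP was at 89.1 and ALB at 39.9 CPM, CYP3A4 was at 0 UMIs, and 5 of the 10 markers reached 10 CPM. The 10 enterocyte markers summed to 880 CPM against 330 CPM in Beta-1-like cells, with FABP1 as the highest and VIL1 at 129 against 133 CPM. The 10 adipocyte markers summed to 48.0 CPM, the highest sum of the 12 clusters, against 22.7 CPM in Beta-1-like cells. AQP7, a glycerol channel, made up most of it at 37.1 CPM against 11.1 CPM, while ADIPOQ, LEP, CIDEC, CIDEA, FABP4 and LPL, 6 of the 10, were at 0 UMIs. The part of other cell types in the PLIN2 level was not tested. These cells were also deep: 62.6% of those without DOX and 48.9% of those with DOX lay above the 90th percentile of UMIs of their library. The part of depth or of undetected doublets in their levels was not tested, and PLIN2 thinned to 5000 UMIs gave a log2 ratio of 1.30.

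The outline of this cluster depended on the clustering. With Leiden seed 1 a metallothionein-led cluster of 6205 cells took in much of the Beta-1-like population, and PLIN2 then stood at a log2 ratio of -0.00, PLIN3 at -0.37 and CIDEB at -0.79. To follow the levels along metallothionein itself, Beta-1-like and metallothionein-led cells with at least 5000 UMIs were pooled and thinned to 5000 UMIs. They were put into 4 bins of equal size by their UMIs from 11 metallothionein genes. Under no DOX, PLIN2 was at 117, 113 and 132 CPM in the lower 3 bins and at 222 CPM (209 to 235) in the top bin, whose median cell had 55 metallothionein UMIs against 9 in the bin below. Under DOX it was at 121, 120 and 123 CPM and then 205 CPM (195 to 214). PLIN3 went from 86.8 to 126 CPM without and from 71.9 to 102 CPM with DOX between the last 2 bins, and CIDEB from 20.7 to 33.4 and from 13.0 to 28.0 CPM. Metallothionein-led cells made up 44.7% of the top bin under no DOX and 25.7% under DOX, and 0.641% or less of each lower bin, so nearly all of that cluster lay in the top bin beside a larger number of Beta-1-like cells, and the bin is no separate measure of the cluster. HILPDA was lowest in the top bin, at 26.4 CPM (22.3 to 31.1) without and 26.7 CPM (23.5 to 30.4) with DOX. These intervals overlapped those of each lower bin.

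**Figure D4:**
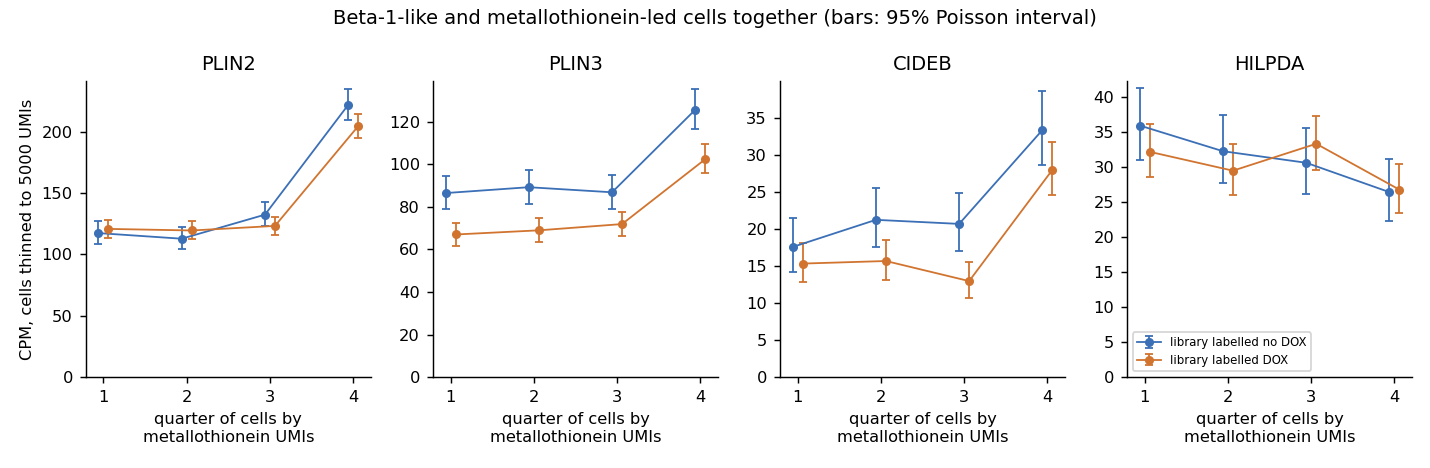
CPM of PLIN2, PLIN3, CIDEB and HILPDA (vertical axes, from 0) in Beta-1-like and metallothionein-led cells together, thinned to 5000 UMIs and put into 4 equal bins by metallothionein UMIs (horizontal axes), with 1 line per library and 95% Poisson intervals. PLIN2 reaches 222 CPM and 205 CPM in the top bin from 132 and 123 CPM in the bin below.

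Beta cell progenitor-like cells had less PLIN2 and PLIN3 than Beta-1-like cells and the highest PNPLA2 of the clusters. Against Beta-1-like cells PLIN2 stood at a log2 ratio of -1.66 (-1.72 to -1.61), with 44.5 against 141 CPM, and PLIN3 at -1.20 (-1.26 to -1.15). Both were called lower, where 4.21% of 11089 genes were. PNPLA2 was called higher at 1.63 (1.55 to 1.71), but 33.8% of all genes were called higher and the median gene stood at 0.73. INS was at 213070 CPM in Beta-1-like cells and at 42134 CPM in the progenitors, and its part in that shift was not tested. Over UMIs other than hormone, metallothionein and mitochondrial genes PLIN2 stood at -1.93 and PNPLA2 at 1.36. Against the median gene, PLIN2 was at -2.39, PLIN3 at -1.93 and PNPLA2 at 0.91. DGAT1 (0.75) was at the median gene, whereas CIDEB (-0.79) and HILPDA (-0.49) were below it. PLIN5, under the 5 CPM minimum and so not compared, was at 1.21 CPM (90 UMIs) in these cells and 0.155 CPM (27 UMIs) in Beta-1-like cells.

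Against Beta-2-like cells, alpha-like cells had CIDEB, which met the minimum through alpha-like cells only, at a log2 ratio of 2.92 (2.73 to 3.12), PLIN3 at 0.91, PLIN2 at 0.64 and HILPDA at -1.29 (-1.39 to -1.20). Alpha-like cells had APOA1 at 433 CPM, APOC3 at 373 CPM, APOB at 7.47 CPM and FABP1 at 13.5 CPM, where Beta-2-like cells had 48.2, 64.4, 12.3 and 7.72 CPM. Delta-like cells had PLIN2 at a log2 ratio of -1.35 against Beta-2-like cells, from 31.0 and 79.0 CPM, while PLIN3 was at -0.17. The median gene of the delta-like comparison was also at -0.17, and that of the alpha-like comparison at -0.07. Duct-like cells, the SOX9-expressing cluster, combined high PLIN2 with APOA1 at 330, APOA2 at 332 and LIPC at 156 CPM and had CIDEB at 3.24 CPM. Of the 10 hepatocyte markers, which include APOA1, 6 reached 10 CPM in duct-like cells. They summed to 588 CPM, with AFP at 92.0 and FGB at 64.8 CPM and CYP3A4 at 0 UMIs. The part of other cell types in the duct-like levels was not tested.

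The comparison the libraries were made for set DOX against no DOX. Beta-1-like cells were 3982 of the 21808 cells under no DOX and 6816 of the 23118 under DOX, so a value over all cells joins this difference in cell shares with the levels within clusters. Over all cells kept, PLIN2 was at 96.2 CPM without and 110 CPM with DOX, a log2 ratio of 0.20 (0.17 to 0.22). PLIN3 was at 61.9 and 58.3 CPM, a log2 ratio of -0.09 (-0.12 to -0.06). With every named class weighted equally the values were 0.20 for PLIN2 and -0.12 for PLIN3. The 2 perilipins thus lay on opposite sides of 0 by small amounts, with the median gene at -0.01. HILPDA stood at 0.12 and CIDEB at 0.09, and the intervals of PNPLA2, DGAT1, DGAT2 and PLIN5 held 0. None of the 6 members compared reached the 1.5-fold line in either direction, as 0.201% of 10444 genes did upward and 0.402% downward. Of the lipid list genes compared, APOA2 alone passed it, at a log2 ratio of -0.93.

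By cluster the values were uneven. PLIN2, over cells of all depths, was level in Beta-1-like cells at a log2 ratio of -0.00 (-0.04 to 0.03) and in the metallothionein-led cluster at 0.00 (-0.06 to 0.07). It was higher in the library labelled DOX in alpha-like cells at 0.33 (0.29 to 0.38), in delta-like cells at 0.29 and in beta cell progenitor-like cells at 0.25. Beta-2-like cells stood at 0.19, the GPC3-led cluster at 0.24, proliferating progenitor-like cells at 0.29 and duct-like cells at 0.22. The smaller progenitor-like cluster stood at -0.04, with an interval that held 0. PLIN3 was lower in the library labelled DOX in Beta-1-like cells at -0.31 (-0.36 to -0.27), from 99.7 to 80.3 CPM, a value above 2.17% of the genes compared there. In delta-like, GPC3-led and Beta-2-like cells it was at -0.17, -0.18 and -0.12. In the remaining clusters its interval held 0, among them alpha-like cells at -0.03, duct-like cells at 0.12 and the smaller progenitor-like cluster at 0.20. CIDEB was at 0.40 (0.28 to 0.52) in alpha-like and at -0.24 (-0.34 to -0.15) in Beta-1-like cells. Beta-1-like cells were shallower under DOX, at medians of 13991 against 17155 UMIs. Depth bins with medians of 12750 UMIs without and 13991 with DOX had PLIN2 at 85.0 and 120 CPM, PLIN3 at 63.8 and 74.2 CPM. Those at 17155 and 19138 UMIs had PLIN2 at 117 and 175 CPM, PLIN3 at 91.5 and 97.5 CPM. The DOX bin was the deeper of each pair, and the part of depth in these ratios was not tested. With 1 library a group, these differences cannot be told apart from the spread between libraries.

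**Figure D5:**
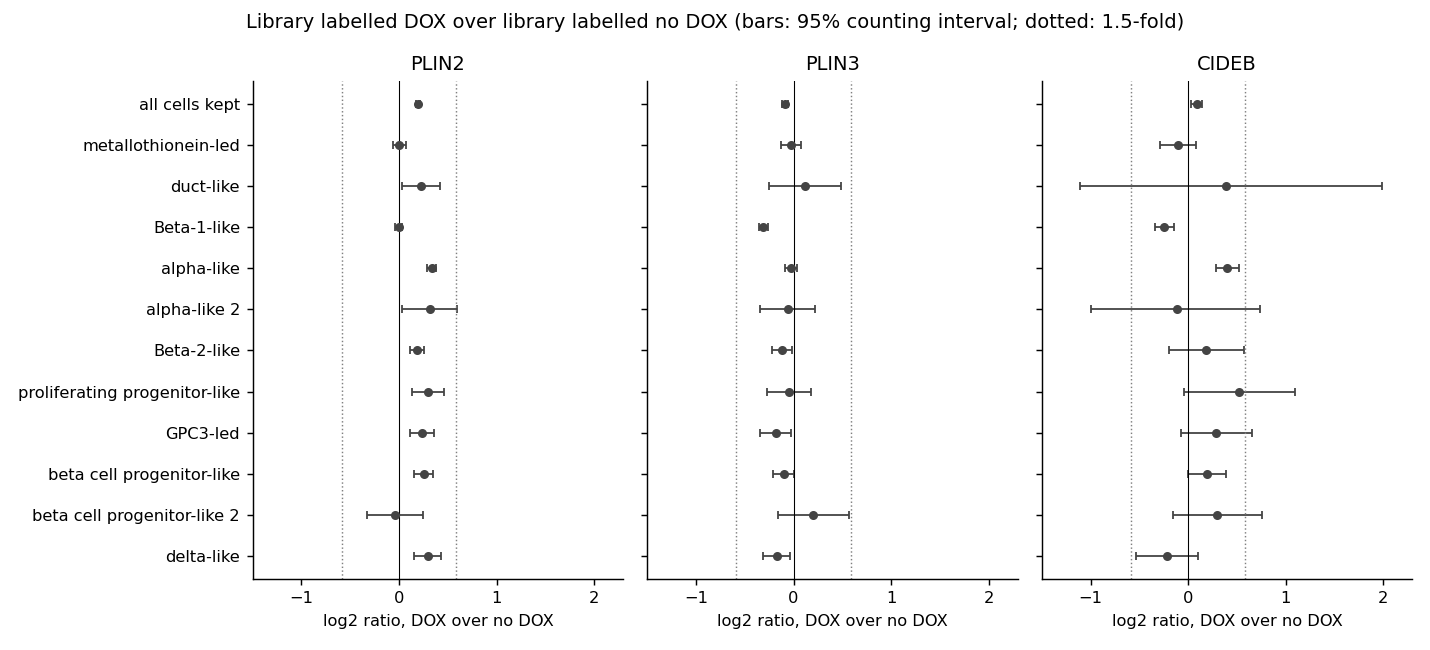
Log2 ratio of DOX over no DOX, as the libraries are labelled (horizontal axes), for PLIN2, PLIN3 and CIDEB in all cells kept and in 11 clusters (vertical axis), with 95% counting intervals and dotted lines at 1.5-fold. PLIN2 lies at 0.33 in alpha-like and -0.00 in Beta-1-like cells, and PLIN3 at -0.31 in Beta-1-like cells. Beta-1-like cells had a median of 13991 UMIs under DOX against 17155 under no DOX.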

How the data were processed

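Single-cell RNA from 2 libraries of 10x Genomics capture was analysed, 1 per group as the labels give them. The authors deposited whole-number UMI counts per gene and barcode, not normalized. The matrix headers name Cell Ranger 3.0.2, while the submitters' processing notes list Cell Ranger 3.0, kallisto, bustools 0.40.0, Scanpy, Seurat and GRCh38. The strand setting of the counting is not given in the sources used here. The files start at 500 UMIs per barcode, so free RNA was not estimated.

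Barcodes under 1000 UMIs were left out and doublets predicted by Scrublet at default parameters were removed (7895 and 8338 barcodes, or 26.6% and 26.5%). Highly variable genes, less the members and lipid list genes, were reduced to 50 principal components, joined by 3 neighbours per library and clustered by Leiden at resolution 0.5 (scanpy 1.11.5, leidenalg 0.10.2, umap-learn 0.5.12, scikit-learn 1.9.0, numpy 2.4.6, pandas 2.3.3, scipy 1.17.1, matplotlib 3.10.9, python 3.11.15). A class name required a mean log2 fold of its markers of at least 1 and at least 3 markers at a log2 fold of 1 or more. At least 1 marker had to be among the cluster's top 50 genes by fold. No other class could have more markers among the leading genes, and a shallow cluster needed at least 1 of its own there. UMIs were summed per cluster and library and scaled to 1000000. A cluster of 36 cells was left out. Levels have 95% exact Poisson intervals, ratios exact conditional binomial intervals and shares of cells Clopper-Pearson intervals. With 1 library a group there was no test. Genes with at least 5 CPM in 1 of the groups were compared and called at 2-fold in both libraries between clusters and at 1.5-fold between libraries. The code was tested on simulated data.

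The members and lists were chosen with earlier results of these data known, and the class markers come from the study's marker list for the same libraries, in which PLIN2 and PLIN3 are themselves listed. Beside the members, up to 4 genes of each list with the largest difference between Beta-1-like and Beta-2-like cells and at least 10 CPM, and the 5 genes most like PLIN2 and PLIN3, were named. Other genes called within a list (among them G0S2, LIPG, ANGPTL4, APOC1 and APOE) and genes lying opposite a member were named after their values were seen. A gene called in the metallothionein-led comparison is not reported here. Positions are those of GENCODE 44. Alternatives changed the UMI minimum, the doublet step, the mitochondrial share, the scaling, the depth, the filter on low genes and the clustering.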

Additional observations from a re-analysis of the deposited data

Results flagged for a closer look

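CIDEB differed in direction between 2 cell classes under the same contrast. In alpha-like cells the library labelled DOX stood above that labelled no DOX by a log2 ratio of 0.40 (18.1 CPM without and 23.9 CPM with DOX), and in Beta-1-like cells it stood at -0.24 (22.1 and 18.7 CPM). Both classes come from the same 2 libraries, with a single ratio each, and the difference was not tested. Its sign held in 6 of 6 alternatives for each class, from 0.37 to 0.53 in alpha-like cells and from -0.36 to -0.19 in Beta-1-like cells.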

How the results depend on the processing

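No paired analysis was possible because each group was 1 library. The alternatives for the metallothionein-led and progenitor-like comparisons were chosen after seeing the data. With no replicates, a value counted as moved when it left its own counting interval.

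PLIN2 in Beta-1-like over Beta-2-like cells (0.83) stayed above 0 in 14 of 14 alternatives and reached 2-fold in 7 of them. It was 1.21 with a minimum of 2000 UMIs, 1.05 with no minimum, 0.96 with doublets kept, 0.92 without cells over 20% mitochondrial UMIs and 0.92 over UMIs other than hormone, metallothionein and mitochondrial genes. It was 1.00 centred on the median gene, 0.74 as means over cells, 0.70 thinned, 1.04 clustered with all variable genes, 1.21 with 15 neighbours, 1.18 with Leiden seed 1 and 1.19 at resolution 0.8. PLIN3 (1.30) was at least 2-fold in 14 of 14, in the same order at 1.62, 1.42, 1.26, 1.37, 1.39, 1.47, 1.20, 1.23, 1.5, 1.47, 1.62 and 1.60. The library labelled no DOX alone gave 0.93 for PLIN2 and 1.42 for PLIN3, and that labelled DOX 0.74 and 1.22.

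The metallothionein-led comparison depended on where the clustering set the border to Beta-1-like cells. That cluster held 987 cells, but 6309 with a minimum of 2000 UMIs, 6205 with Leiden seed 1 and 1162 at resolution 0.8, with 5207, 5318 and 5682 Beta-1-like cells. PLIN2 (1.15) was then 0.042, -0.0024 and 0.86, and it was 1.27 centred and 1.30 thinned. With 2000 UMIs and with seed 1, PLIN3 stood at -0.33 and -0.37, CIDEB at -0.74 and -0.79, DGAT1 at -0.51 and -0.52, DGAT2 at -0.13 and -0.21 (0.39 in the first clustering, under the 5 CPM minimum), and HILPDA at 0.0049 and 0.045, all on the other side of 0 from the first clustering. At resolution 0.8 DGAT1 was -0.19. No metallothionein-led cluster was found with doublets kept or with 15 neighbours.

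PLIN2 in progenitor-like over Beta-1-like cells (-1.66) was -1.93 with 2000 UMIs, -1.80 with doublets kept, -1.93 over the other UMIs, -2.39 centred and -1.52 thinned. Between the libraries PLIN2 (0.20) was 0.28 as means over cells, 0.26 thinned and 0.24 in named endocrine classes, and PLIN3 (-0.09) was -0.059 thinned. Genes at least 2-fold higher in Beta-1-like cells numbered 179, 89 at 20 CPM and 682 with no filter. Genes at least 1.5-fold apart between the libraries numbered 63, 24 at 20 CPM and 3668 with no filter. Where no cause is named it was not tested. PLIN4 (18 UMIs), PLIN5 (265) and DGAT2 (1406) were below the 5 CPM minimum and were not compared.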
